A study of Mus musculus with 6 samples.

Results

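The genes of the laminin chains and of the integrin subunits were examined in the groin (inguinal) fat of male wild-type mice on a high-fat diet, with or without hesperidin, a flavonoid glycoside of citrus fruit. Members were the protein-coding rows of the deposited table whose symbol was that of a laminin alpha, beta or gamma chain or of an integrin alpha or beta subunit, 37 of 57180 genes. They comprised 11 laminins and 26 integrins, and the integrins were 18 alpha and 8 beta subunits. HEP was a high-fat diet supplemented with 0.5% hesperidin and HFD the same kind of diet without it, both for 12 weeks, with 3 RNA-seq libraries each (HEP1 to HEP3 and HFD1 to HFD3) and 1 batch label for all 6. The age and strain of the mice and whether each library came from its own animal were not given in the sources used here, so each p-value speaks for the spread among the libraries alone, which may be technical. Values are TPM, a relative abundance that is divided by transcript length and scaled to the same total in each library. The depth behind it was unknown, and no counting interval is given.

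Laminins are trimers of 1 alpha, 1 beta and 1 gamma chain and form the sheet of the basement membrane, which in fat surrounds each adipocyte and each blood vessel. Integrins are cell-surface receptors made of 1 alpha and 1 beta subunit. Some bind laminin, others collagen or fibronectin, and those of leukocytes bind adhesion molecules on other cells. In adipose tissue the subunits Itgam and Itgax are widely used to mark macrophages and dendritic cells.

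No laminin or integrin gene passed the test between the diets. With limma on log2(TPM + 1), 15446 genes that averaged 1 TPM or more across the 6 libraries were tested, and 0 (0.0%) had an adjusted p under 0.05. Of the 37 members 31 were tested, 10 laminins and 21 integrins. The count called was 0, with a smallest adjusted p of 0.879 in limma, and 0 had an unadjusted p under 0.05, against 279 (1.81%) of all genes tested. With HEP2 left out, 7 of the 31 members and 3683 of the 15446 genes tested had an unadjusted p under 0.05 in limma, which are like shares. Those members were Itga4, Itga7, Itgal, Itgb3, Lama4, Lamb1 and Lamc1, each with an adjusted p of 0.207 in limma. The log2 fold change, HEP over HFD, was positive for 14 members and negative for 17, and its median was -0.02, beside 0.07 over all genes tested. The 3 HEP values lay wholly below the 3 HFD values for 1 member, Itga6, and wholly above for 0, against 3.58% of all genes tested wholly below, 1.88% wholly above and 5.46% in either direction. The 6 members below the filter were Lama1, Itga2, Itga10, Itga8, Itgb6 and Itgb8, with means of at most 1.06 TPM in HEP and 0.757 TPM in HFD. All of them had a value above 0 in each library except Itgb6, which was listed at 0 in HFD3. Of the members tested, Lama3 lay nearest above the filter, at 1.07 ± 0.0896 TPM in HEP and 1.1 ± 0.157 TPM in HFD (mean ± SD, n = 3 each, as below).

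The libraries stood apart in content that is not of fat cells. Summed over 8 B cell markers, the level was 989, 6.60 and 1074 TPM in HEP1 to HEP3 and 5.35, 5.19 and 502 TPM in HFD1 to HFD3, and over 7 T cell markers it was 525, 5.51 and 567 TPM in HEP and 4.20, 7.43 and 391 TPM in HFD. HEP1, HEP3 and HFD3 were thus rich in lymphocyte transcripts. Skeletal muscle markers summed to 1412, 12513 and 32.1 TPM in HEP and to 176, 611 and 61.7 TPM in HFD, most of all in HEP2. Adipocyte markers, Adipoq among them, summed to 28039, 45178 and 27239 TPM in HEP and 44141, 46638 and 36466 TPM in HFD. Fabp4 made up the larger part of each sum, with 21102, 34962 and 21544 TPM in HEP and 34655, 35107 and 28319 TPM in HFD. Of these markers 8 of 8 were above 0 in every library. In such bulk samples, fewer cells of a type and less RNA per cell cannot be told apart.

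Lamc1, Lama4, Lamb2 and Lamb1 were the most abundant laminin chains, and their means were lower in HEP, though none passed the test. Lama4, the alpha chain of endothelial and adipocyte laminins, had 58.9, 80.5 and 41.6 TPM in HEP1 to HEP3, against 80.9, 83.4 and 64.0 TPM in HFD1 to HFD3. HEP2 lay among the HFD values, and HEP1 and HEP3 lay below them. Its log2 fold change, HEP over HFD, was -0.37 ± 0.26 (SE), with a limma p of 0.203 before adjustment and of 0.879 after. It was -0.13 without HEP3, -0.60 without HEP2 and -0.15 with lymphoid content, the mean log2(TPM + 1) of B and T cell markers, as a covariate.

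Lama2, the alpha chain of muscle and nerve laminins, had 18.4, 25.1 and 11.2 TPM in HEP and 20.4, 28.2 and 19.1 TPM in HFD. The groups overlapped, and the log2 fold change was -0.34 ± 0.31. It was -0.05 without HEP3, -0.59 without HEP2, -0.18 without HFD2 and -0.11 with the lymphoid covariate. Lama5, an alpha chain of vessel and epithelial laminins, averaged 17.7 ± 3.25 TPM in HEP and 20.5 ± 3.11 TPM in HFD. Lama4 therefore made up most of the alpha chain transcripts, 61.7 ± 1.40% of their summed TPM in HEP and 63.3 ± 0.617% in HFD. Lama1, the embryonic alpha chain, did not exceed 0.34 TPM in HEP or 0.03 TPM in HFD.

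Lamb1 and Lamb2, the beta chains shared by most laminins, were present at like levels. Lamb1 had 33.5, 40.6 and 30.7 TPM in HEP, against 50.1, 54.4 and 37.8 TPM in HFD. HFD3 alone lay within the HEP range, and the log2 fold change was -0.42 ± 0.19 with a limma p of 0.0702 before adjustment and 0.879 after. Lamb2 had 47.8, 43.3 and 23.7 TPM in HEP and 51.6, 50.9 and 34.8 TPM in HFD, a log2 fold change of -0.29 ± 0.31 with overlap. Left-out libraries moved it between -0.48 without HEP1 and 0.015 without HEP3, and the lymphoid covariate gave -0.11. The ratio of Lamb1 to Lamb2 was 0.701, 0.938 and 1.29 in HEP and 0.971, 1.07 and 1.09 in HFD, so HEP1 and HEP3 lay on either side of the HFD libraries.

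Lamc1, the gamma chain of nearly every laminin, was the most abundant laminin gene, with 99.1, 135 and 76.0 TPM in HEP and 146, 161 and 113 TPM in HFD. HEP2 lay within the HFD range and HEP1 and HEP3 below it, as for Lama4. Its log2 fold change was -0.46 ± 0.25, with a limma p of 0.115 before adjustment and 0.879 after. It was -0.26 without HEP3 and -0.24 with the lymphoid covariate. It held 96.4 ± 0.226% of the gamma chain TPM in HEP and 97.1 ± 0.694% in HFD. The ratio of Lama4 to Lamc1 differed little between libraries, at 0.595, 0.598 and 0.548 in HEP and 0.555, 0.517 and 0.568 in HFD.

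Lama3 and Lamb3, chains of epidermal laminin, were low. Lama3 did not exceed 1.13 TPM in HEP or 1.21 TPM in HFD. Lamb3 averaged 5.75 ± 1.06 TPM in HEP and 6.29 ± 2.24 TPM in HFD, and Lamc3, a gamma chain of nerve and vessel laminins, had 2.45 ± 0.380 TPM in HEP and 2.41 ± 0.457 TPM in HFD. Keratinocyte and epithelial markers summed to 3.35 to 11.9 TPM in HEP and 4.0 to 9.82 TPM in HFD, and Krt5, Krt14 and Dsp of that list had means below 1 TPM.

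Of 10 laminins tested 9 had a negative log2 fold change, as did 41.4% of all genes tested, and the laminin median was -0.25 beside 0.07 over all genes. For 6 of the 10 the 3 highest libraries were HEP2, HFD1 and HFD2, the libraries poor in lymphocyte transcripts, an order found in 13.7% of all genes tested and looked for after the values were seen. Without HEP3 the median was -0.05 with 7 of 10 negative, and with lymphoid content as a covariate it was -0.11 with 8 of 10 negative. Relative to the median of all genes in the same fit, the laminin median was -0.15 without HEP3 and -0.10 with the covariate, against -0.32 in the main fit. The same 3 libraries were highest for 7 of 8 adipocyte markers and 8 of 8 Schwann cell markers. Schwann cell markers summed to 278, 419.8 and 137 TPM in HEP and 345, 613 and 213 TPM in HFD, and smooth muscle and pericyte markers to 511 to 729 TPM in HEP and 571 to 831 TPM in HFD. The part of these cell types in the laminin values was not tested.

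**Figure D1:**
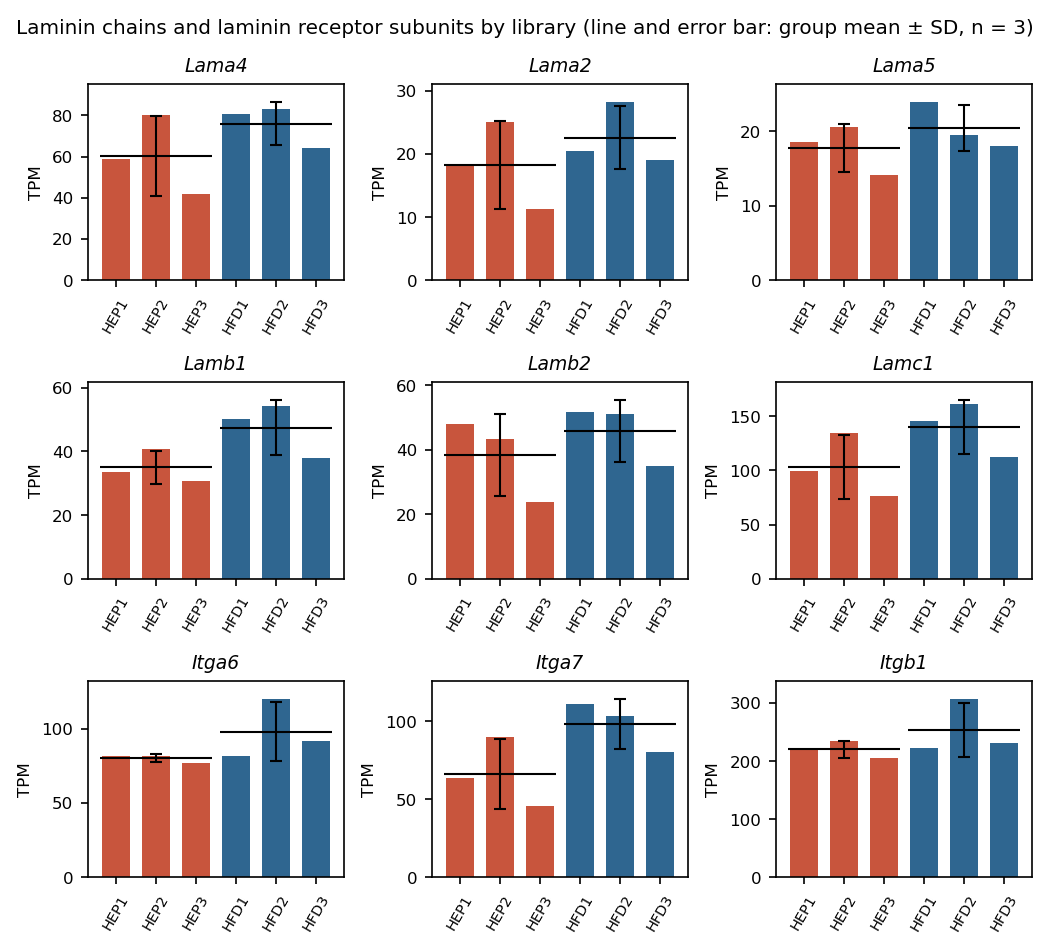
TPM of 6 laminin chains and 3 subunits of laminin receptors in each library as bars, HEP in red left of HFD in blue, with a line and error bar for the group mean ± SD (n = 3). HEP3 was the lowest library for each of the 9 genes, and Itga6 was the gene whose HEP values all lay below its HFD values.

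Among integrin subunits that bind laminin, Itga6 and Itga7 were abundant. Itga7, the alpha subunit of muscle laminin receptors and present in many mesenchymal cells, had 63.2, 90.0 and 45.4 TPM in HEP, against 111, 103 and 79.9 TPM in HFD. HEP2 lay inside the HFD range and the other HEP libraries below it. Its log2 fold change was -0.60 ± 0.28, the most negative of the members, with the smallest limma p of any member, 0.0696 before adjustment and 0.879 after. Its highest libraries were HFD1, HFD2 and HEP2, those poor in lymphocyte transcripts. HEP2 had the most skeletal muscle transcripts, while in HFD1, where Itga7 was highest, the muscle markers summed to 176 TPM. Exons of Itga7 overlap those of Mettl7b on the opposite strand, which was likewise highest in HEP2, HFD1 and HFD2. Mettl7b had 5.73, 24.3 and 4.81 TPM in HEP and 15.1, 8.41 and 6.73 TPM in HFD. Whether the counting used strand was not given, so reads of Itga7 and Mettl7b cannot be told apart. The part of muscle or lymphocyte content in the Itga7 values was not tested. Without HEP2 the log2 fold change was -0.85 ± 0.22 with an adjusted p of 0.207 in limma. Without HEP3 it was -0.36 ± 0.24, and with the lymphoid covariate it was -0.36.

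Itga6, the laminin receptor subunit of endothelium and epithelium, had 81.7, 81.8 and 77.0 TPM in HEP and 81.8, 120.1 and 91.7 TPM in HFD. The groups did not overlap, though HEP2 and HFD1 differed only in the second decimal (81.76 TPM in HEP2 and 81.79 TPM in HFD1), and the log2 fold change was -0.27 ± 0.17 with an adjusted limma p of 0.879. Endothelial markers likewise summed to lower values in HEP, 669, 681 and 629 TPM, against 779, 841 and 737 TPM in HFD, and 4 of 8 of them lay wholly below, against 3.58% of all genes tested. Without HFD2 the Itga6 value was -0.11. Their part in the Itga6 values was not tested. Itga3, an epithelial laminin receptor subunit, was low, at 2.4 ± 0.0666 TPM in HEP and 2.19 ± 0.163 TPM in HFD.

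Itgb1, the beta subunit shared by the laminin, collagen and fibronectin receptors, had 218, 235 and 206 TPM in HEP and 223, 307 and 231 TPM in HFD. Apart from HFD2 the values overlapped closely, and the log2 fold change was -0.19 ± 0.17, or -0.05 without HFD2. Itgb4, the partner of Itga6 in the hemidesmosomes of epithelium, averaged 2.05 ± 0.553 TPM in HEP and 2.04 ± 0.692 TPM in HFD.

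Among subunits that bind collagen, Itga1 varied little between libraries. The highest library exceeded the lowest by 2.04 times for Itga11, 4.04 times for Itga10 and 4.61 times for Itga2. These ratios rest on low values, 0.82 to 1.67 TPM for Itga11, 0.27 to 1.09 TPM for Itga10 and 0.31 to 1.43 TPM for Itga2. Their precision at unknown depth cannot be given. Itga1, the alpha subunit that binds basement membrane collagen, had 23.5, 22.6 and 22.6 TPM in HEP and 23.4, 26.9 and 24.4 TPM in HFD. The highest library exceeded the lowest by 1.19 times, the smallest ratio among the members, and the log2 fold change was -0.11 ± 0.13 (95% interval -0.44 to 0.21; -0.06 without HFD2). Itga11, the receptor subunit of fibroblasts for fibrillar collagen, had 1.46, 1.67 and 0.82 TPM in HEP and 1.13, 1.22 and 1.01 TPM in HFD, a log2 fold change of 0.11 ± 0.28.

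Receptors of fibronectin, vitronectin and fibrinogen gave no call either. Itga5, the fibronectin receptor subunit, had 11.4, 9.02 and 9.78 TPM in HEP, against 12.2, 14.9 and 11.3 TPM in HFD. HEP1 lay within the HFD range, and the log2 fold change was -0.31 ± 0.19, or -0.20 without HFD2. Itgav, the vitronectin receptor subunit that also releases TGF-beta from its latent form, had 24.8, 27.1 and 22.3 TPM in HEP and 24.9, 30.1 and 20.6 TPM in HFD. The HEP values lay inside the HFD range, and the log2 fold change was -0.01 ± 0.19 (95% interval -0.46 to 0.43). Itgb5, a partner of Itgav, averaged 63.8 ± 25.4 TPM in HEP and 74.0 ± 16.4 TPM in HFD.

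Itga2b, the fibrinogen receptor subunit of platelets, had 4.44, 3.83 and 4.50 TPM in HEP and 3.53, 1.79 and 4.65 TPM in HFD, with a log2 fold change of 0.34 ± 0.31. It was 0.05 without HFD2, 0.56 without HFD3 and 0.17 with the lymphoid covariate. Its partner Itgb3 had 6.66, 1.01 and 5.41 TPM in HEP and 1.14, 1.56 and 4.13 TPM in HFD, highest in the libraries rich in lymphocyte transcripts. The sum of the platelet and megakaryocyte marker list had the other order. It was 42.6, 88.3 and 29.9 TPM in HEP and 90.1, 114 and 65.7 TPM in HFD. Nearly all of it was Pf4, a chemokine, so platelet content cannot be read from it. Of that list 6 of 8 genes had means below 1 TPM, and Gp9, Gp1bb and Gp6 were listed at 0 in at least 1 library.

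Several leukocyte integrins varied widely between libraries, and none passed the test between the diets. Of 21 integrins tested 8 had a highest library at least 5 times the lowest, against 0 of 10 laminins and 17.3% of all genes tested (a bound chosen after the values were seen). The share over all genes also counts genes whose lowest library was listed at 0. Those 8 included Itgb3, while the leukocyte subunits Itgam and Itga9 fell short of it, at 2.51 and 2.22 times. Itgal, the alpha subunit by which lymphocytes bind ICAM proteins, had 32.6, 1.40 and 32.1 TPM in HEP and 0.74, 1.78 and 19.9 TPM in HFD. HEP1, HEP3 and HFD3 were high and the other libraries low, and the groups overlapped. The log2 fold change was 1.57 ± 1.35 with an adjusted limma p of 0.879.

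Itga4 and Itgb7, which pair in the receptor that guides lymphocytes to gut and lymphoid tissue, had the same order. Itga4 had 28.4, 1.55 and 27.2 TPM in HEP and 1.62, 2.74 and 13.4 TPM in HFD, a log2 fold change of 1.30 ± 1.12. Itgb7 had 93.0, 9.57 and 94.4 TPM in HEP and 4.56, 12.6 and 65.2 TPM in HFD, a log2 fold change of 1.41 ± 1.19. Itgae, the other partner of Itgb7 and a receptor of lymphocytes and dendritic cells for E-cadherin, had 8.93, 0.31 and 8.44 TPM in HEP and 0.64, 0.64 and 6.5 TPM in HFD. In each of these genes the 3 libraries rich in B and T cell markers stood above the other 3.

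With lymphoid content as a covariate, built from B and T cell markers that include no member, the log2 fold changes were 0.11 for Itgal, 0.11 for Itga4 and 0.15 for Itgb7. Leaving out 1 library moved them between 0.86 and 2.84 for Itgal, 0.70 and 2.47 for Itga4, and 0.60 and 2.47 for Itgb7, each highest without HEP2. The 3 libraries were the highest for 7 of 21 integrins tested (33.3%), near the 30.5% of all genes tested. Besides the 4 genes above they were Itgb2, Itgb3 and Itga2b. Among the laminins the order was found for Lamb3 alone. Dendritic cell markers had it for 7 of 8 genes, and their sums were 293, 22.2 and 298 TPM in HEP and 21.6, 31.0 and 181 TPM in HFD. The largest part in HEP1, HEP3 and HFD3 was H2-DMb2, at 152, 166 and 87.6 TPM, followed by Ccr7, at 67.0, 65.9 and 45.2 TPM. The exception was Zbtb46, which varied little, with 10.95, 8.92 and 9.21 TPM in HEP and 10.46, 9.08 and 9.70 TPM in HFD. Cd209a had the order only narrowly, with 11.04 TPM in HFD3 and 10.96 TPM in HFD2. The part of B and T cells in the dendritic cell marker sums was not tested.

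**Figure D2:**
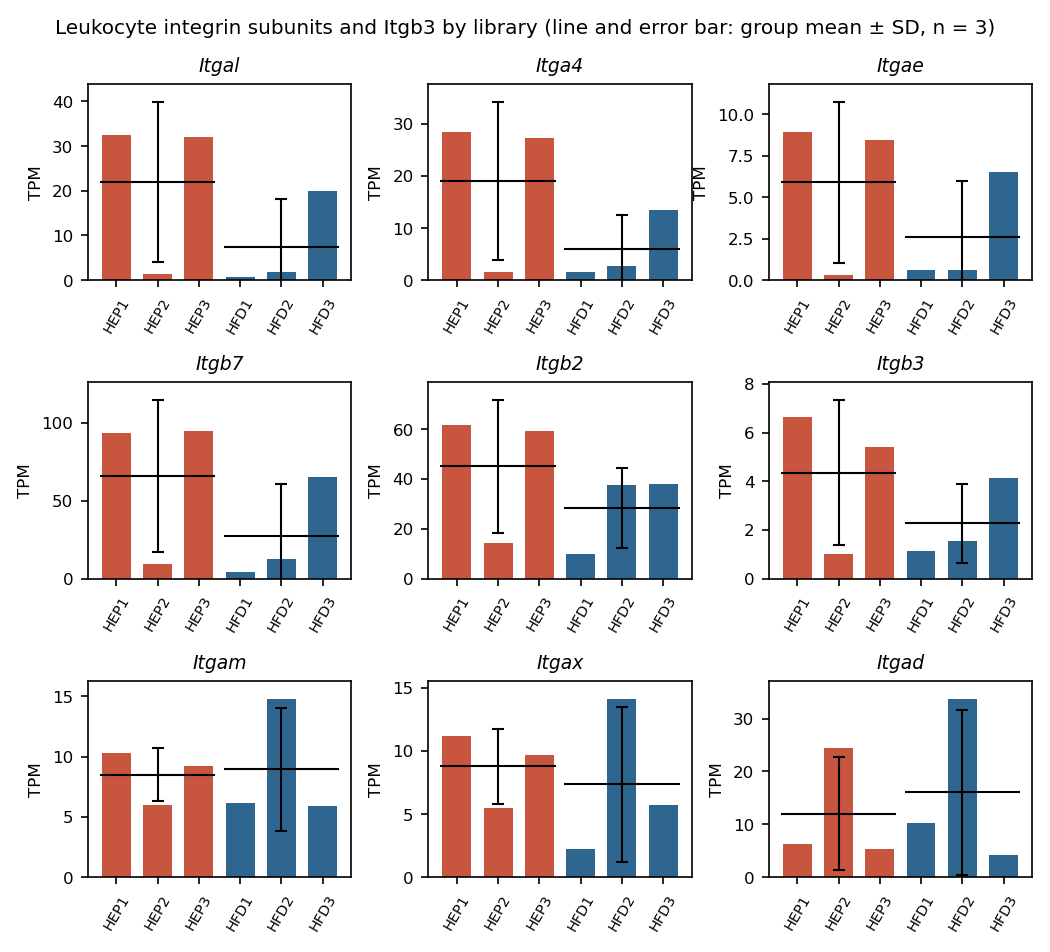
TPM of 8 leukocyte integrin subunits and of Itgb3 in each library as bars, HEP in red left of HFD in blue, with a line and error bar for the group mean ± SD (n = 3) and lower bars cut at 0. Itgal, Itga4, Itgae and Itgb7 were high in HEP1, HEP3 and HFD3, Itgam and Itgax were highest in HFD2, and Itgad was high in HEP2 and HFD2.

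The myeloid subunits Itgam and Itgax did not share that order. Itgam, the alpha subunit of the complement receptor of macrophages and neutrophils, had 10.2, 6.0 and 9.21 TPM in HEP and 6.11, 14.8 and 5.89 TPM in HFD. HFD2 was the highest library, and the HEP values lay inside the HFD range. The log2 fold change was 0.02 ± 0.39 (95% interval -0.92 to 0.95), and its sign turned with median-of-ratios scaling (-0.02) and quantile normalization (-0.13).

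Itgax, the subunit of dendritic cells and of inflammatory macrophages in fat, had 11.2, 5.46 and 9.70 TPM in HEP and 2.23, 14.1 and 5.68 TPM in HFD. HFD1 and HFD2 were the lowest and the highest library, so that the HEP range lay inside the HFD range. The log2 fold change was 0.46 ± 0.58, with -0.09 without HFD1 and 1.02 without HFD2. The ratio of Itgax to Itgam was 1.09, 0.910 and 1.05 in HEP and 0.365, 0.955 and 0.964 in HFD, with HFD1 apart from the rest. Macrophage and monocyte markers summed to 1546, 803 and 1515 TPM in HEP and 567, 1424 and 1114 TPM in HFD, lowest in HFD1. Lyz2 made up the larger part of each sum, with 1177, 477 and 1199 TPM in HEP and 291, 879 and 795 TPM in HFD. Cd68, Csf1r, C1qa and C1qb were likewise lowest in HFD1, but Adgre1 was lowest in HFD3 and Mrc1 and Cd14 in HEP3. The log2 fold change was positive for 3 of the 8 markers and negative for 5. Neutrophil markers were low, at 37.5 to 56.8 TPM in HEP and 27.6 to 49.1 TPM in HFD, and Ly6g was listed at 0 in all 6 libraries.

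Itgad, a further myeloid partner of Itgb2, had 6.30, 24.4 and 5.32 TPM in HEP and 10.2, 33.8 and 4.19 TPM in HFD. HFD2 and HEP2 were the highest, and the 3 libraries rich in lymphocyte transcripts the lowest. Its exons overlap those of Cox6a2, a muscle subunit of cytochrome oxidase on the opposite strand, which had 6.15, 84.5 and 3.22 TPM in HEP and 0.00, 4.61 and 1.22 TPM in HFD. Cox6a2 was highest in HEP2, and HFD2, where Itgad was highest, had little of it. Whether the counting used strand was not given, so reads of the 2 genes cannot be told apart.

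Itgb2, the beta subunit common to Itgal, Itgam, Itgax and Itgad, had 61.6, 14.4 and 59.1 TPM in HEP and 9.76, 37.7 and 37.8 TPM in HFD. HFD2 stood as high as HFD3, although it was poor in lymphocyte transcripts. Of the summed TPM of the 4 alpha partners, Itgal made up 54.0, 3.76 and 57.0% in HEP and 3.84, 2.76 and 55.8% in HFD. Itgad made up 10.4, 65.5 and 9.44% in HEP and 52.9, 52.4 and 11.7% in HFD. The sum of the 4 was 0.979, 2.58 and 0.954 times Itgb2 in HEP and 1.97, 1.71 and 0.944 times in HFD.

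**Figure D3:**
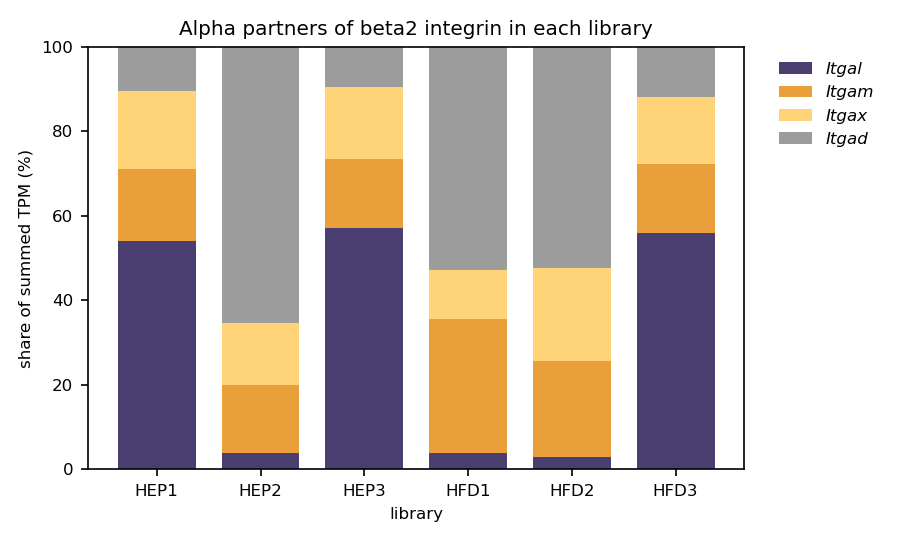
Share of each of the 4 alpha partners of Itgb2 in their summed TPM, in percent, for each library, HEP left of HFD. Itgal held 54.0 to 57.0% in HEP1, HEP3 and HFD3 and at most 3.84% in the other libraries, where Itgad held 52.4 to 65.5%.

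Sequences before the start of transcription are shown for Itga4 and Itgb7, the pair that was high in the same 3 libraries, for the neighbouring genes Itgam and Itgax, and for Lamb1, the laminin chain with the smallest p. Each is the window of 250 bases that ends just before the RefSeq start, on the strand of the gene, in build GRCm38.p6, which may not be the build of the deposited values. RefSeq windows were found for 23 of the 37 members, 26 windows in all. Capitals mark GAGGAA, the core bound by the ETS factor PU.1 of myeloid and B cells, TGTGGT, a core bound by RUNX factors, and GGGCGG, the GC box, read on either strand. No 2 matches overlap in the windows shown.
Itga4 (chr2:79255176-79255425, + strand): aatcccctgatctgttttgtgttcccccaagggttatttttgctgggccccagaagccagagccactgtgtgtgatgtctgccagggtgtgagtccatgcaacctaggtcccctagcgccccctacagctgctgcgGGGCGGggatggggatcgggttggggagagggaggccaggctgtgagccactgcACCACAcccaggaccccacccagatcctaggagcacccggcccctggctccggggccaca
Itgb7 (chr15:102231936-102232185, - strand): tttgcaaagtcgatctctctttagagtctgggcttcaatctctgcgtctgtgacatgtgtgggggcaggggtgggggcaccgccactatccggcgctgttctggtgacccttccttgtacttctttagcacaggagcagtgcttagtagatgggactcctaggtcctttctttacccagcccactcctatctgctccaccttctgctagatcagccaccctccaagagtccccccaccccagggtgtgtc
Itgam (chr7:128062390-128062639, + strand): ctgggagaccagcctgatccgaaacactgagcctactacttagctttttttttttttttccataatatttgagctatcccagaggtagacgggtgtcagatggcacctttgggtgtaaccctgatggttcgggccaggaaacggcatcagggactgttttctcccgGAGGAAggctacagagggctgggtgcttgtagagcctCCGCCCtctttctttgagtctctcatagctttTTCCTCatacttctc
Itgax (chr7:128129300-128129549, + strand): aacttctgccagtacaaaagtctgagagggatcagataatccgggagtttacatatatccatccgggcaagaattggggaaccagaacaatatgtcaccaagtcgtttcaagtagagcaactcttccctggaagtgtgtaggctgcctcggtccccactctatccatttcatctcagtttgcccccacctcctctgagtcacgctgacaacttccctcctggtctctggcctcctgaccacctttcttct
Lamb1 (chr12:31265043-31265292, + strand): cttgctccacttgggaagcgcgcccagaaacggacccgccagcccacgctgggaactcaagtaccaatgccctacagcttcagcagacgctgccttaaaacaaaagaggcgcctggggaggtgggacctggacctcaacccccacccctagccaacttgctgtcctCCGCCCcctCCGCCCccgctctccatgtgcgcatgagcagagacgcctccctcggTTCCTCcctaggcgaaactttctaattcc

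The PU.1-type core was found in 13 of the 26 member windows, and in 23.3% of all 32851 RefSeq windows of this length. The GC box was found in 9 of the member windows and in 32.7% of all. The RUNX-type core was found in 2, those of Itga4 and Itga3, and in 14.0% of all. The Itgam window held 2 matches of the PU.1-type core, 1 on each strand, and the Itgax and Itgb7 windows held none of the 3 motifs. Windows of Itgav and Itga2b also held 2 matches of this core. The 13 windows with it included those of Lama2, Lama5, Lamb1, Lamb2 and Lamb3, besides integrins. These matches describe letters in the window and do not show binding.

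Intervals of the fold changes differed in width between members. The 95% interval of Itgal ran from -1.68 to 4.83 and that of Itgb7 from -1.46 to 4.29, while that of Itgb1 ran from -0.60 to 0.22 and that of Lama5 from -0.69 to 0.28. The log2 fold change was positive for 6 of 7 leukocyte alpha subunits, at a median of 0.46, and for 58.6% of all genes tested. Of the integrins tested 13 had a positive and 8 a negative one, at a median of 0.09. Quantile normalization gave 8 positive and 13 negative at a median of -0.12, and it moved the median of all genes by -0.13. Relative to all genes the integrin median was 0.02 as deposited and -0.06 after quantile normalization, and the laminin median was -0.32 and -0.34. With the lymphoid covariate the relative laminin median was -0.10.

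**Figure D4:**
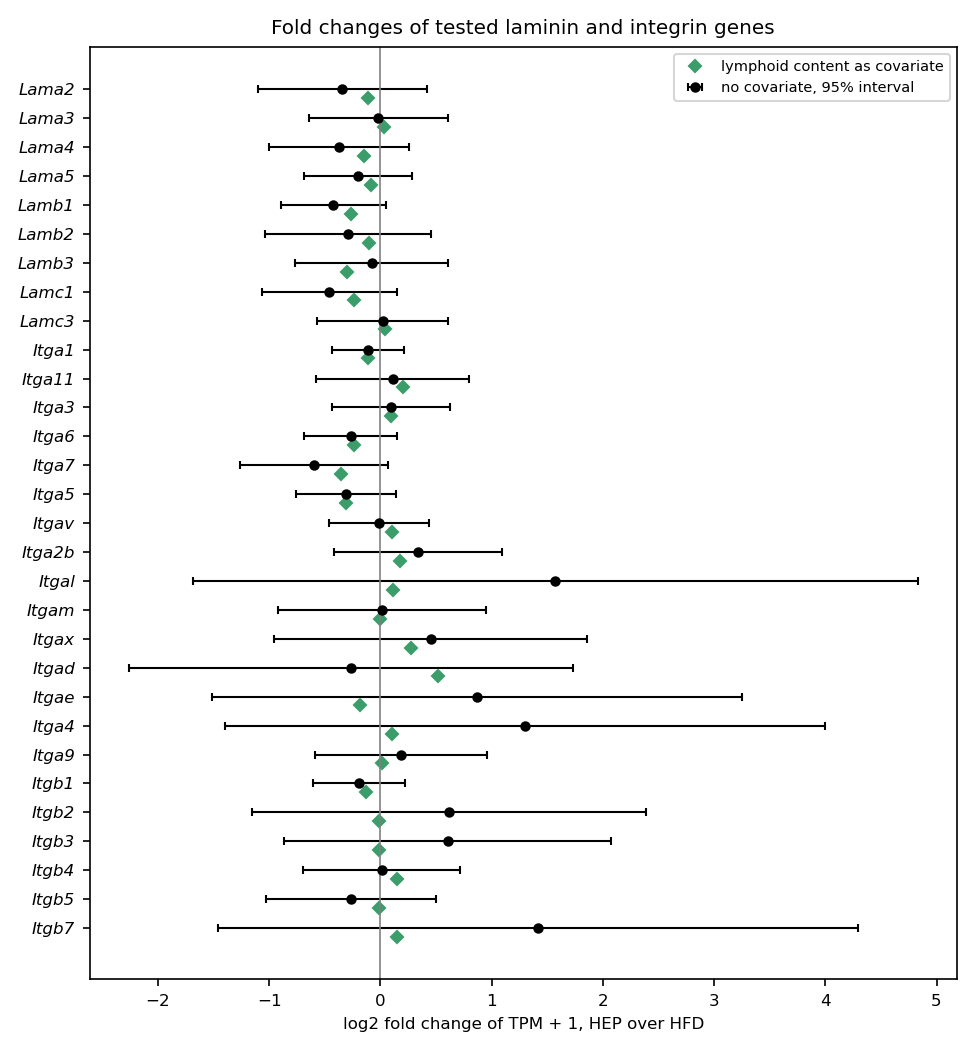
Log2 fold change of TPM + 1, HEP over HFD, of tested laminin and integrin genes with 95% intervals of limma in black, and the estimate with lymphoid content as a covariate in green. Every black interval shown includes 0, and the estimates of Itgal, Itga4 and Itgb7 lie between 0.11 and 0.15 with the covariate.

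Genes that act beside laminins and integrins gave no call in limma. Of 11 tested basement membrane partners 0 passed and 1 had an unadjusted p under 0.05. The 11 log2 fold changes were negative, as were 41.4% over all genes tested, and their median was -0.36. For 8 of the 11 the highest libraries were HEP2, HFD1 and HFD2, poor in lymphocyte transcripts, as for 13.7% of all genes tested. The part of lymphocyte content in these values was not tested. Col15a1, a collagen that anchors basement membranes, had 117, 149 and 104 TPM in HEP, against 228, 261 and 167 TPM in HFD. The groups did not overlap, and its log2 fold change was -0.81 ± 0.23 with a limma p of 0.0104 before adjustment and 0.879 after. Sparc, an abundant collagen-binding matrix protein, averaged 3392 ± 1031 TPM in HEP and 4252 ± 812 TPM in HFD.

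Of 8 other laminin receptors 0 passed, with 2 positive and 6 negative log2 fold changes and a median of -0.10. Sdc2, a syndecan, averaged 18.2 ± 4.48 TPM in HEP and 23.6 ± 3.20 TPM in HFD, and Rpsa, a ribosomal protein also described as a laminin receptor, 1239 ± 523 TPM in HEP and 813 ± 382 TPM in HFD. Of 23 tested genes of integrin activation and the adhesion complex 0 passed, with 13 positive and 10 negative log2 fold changes and a median of 0.09. Tln2, a talin that links integrins to actin, had 16.1, 21.9 and 12.4 TPM in HEP and 22.1, 30.6 and 22.4 TPM in HFD, without overlap (log2 fold change -0.57 ± 0.25, adjusted limma p 0.879). Rap1b, a small GTPase that activates integrins, averaged 142 ± 34.2 TPM in HEP and 119.5 ± 24.7 TPM in HFD. Of 15 tested integrin ligands 0 passed, with 7 positive and 8 negative log2 fold changes and a median of -0.05. Tnc, the matrix protein tenascin C, averaged 6.09 ± 1.01 TPM in HEP and 8.49 ± 1.81 TPM in HFD, and Fn1, fibronectin, 57.4 ± 18.9 TPM in HEP and 77.4 ± 17.2 TPM in HFD. In the last 3 lists 0 genes had an unadjusted p under 0.05.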

How the data were processed

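RNA-seq libraries of inguinal fat were deposited by the authors as a table of TPM per gene and library. The tools listed per the submitters' processing notes were DESeq2, StringTie, RSEM, HISAT2 and fastp, with neither version nor role. Genome build, annotation and strand setting: not given in the sources used here. The columns summed to 999999.71 to 1000000.7 TPM. A rise of abundant transcripts lowers all other TPM values of a library, and depth was unknown.

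Groups were taken from the library titles. Genes that averaged 1 TPM or more were compared as log2(TPM + 1) in limma 3.58.1 (R 4.3.3), HEP over HFD, with an intensity trend, two-sided, with Benjamini-Hochberg adjustment over all 15446 genes and a threshold of 0.05. This scale understates changes of low genes. The test was run on simulated data first. Alternatives were other pseudocounts, filters and scalings, robust empirical Bayes, the replicate number as a block, a lymphoid covariate (mean log2(TPM + 1) of B and T cell markers) and leaving out each library.

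Members and marker lists were chosen with earlier results of these data known. Named were Itgax, Itgam, Lama4, members without overlap between the groups, and of each role the most abundant gene and the 2 with the smallest p. 1 laminin gene is counted among the members but not reported here. Of each pathway list, the most abundant gene and that with the smallest p were named. Other members given by library, such as Itgad, Itgae, Itgb2 and Itgb3, were chosen after their values were seen. All 37 members matched GENCODE M21, used only for exon overlap: exons of 12 overlapped another gene, which had a mean of at least 1 TPM for Itga1, Itga4, Itga7 and Itgad.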

Additional observations from a re-analysis of the deposited data

How the results depend on the processing

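With pseudocounts of 0.1 and 0.01, no filter, a minimum mean of 5 TPM, median-of-ratios scaling, quantile normalization, robust empirical Bayes or the lymphoid covariate, 0 genes passed in limma. Leaving out 1 library gave 0 to 1 genes, and the 1, Gm25541, a gene outside these families, passed without HEP replicate 2. No laminin, integrin or pathway gene passed under any of these. The laminin median lay between -0.37 and -0.052 when 1 library was left out. The integrin median was -0.06 with a minimum mean of 5 TPM, -0.12 after quantile normalization and -0.01 without HFD replicate 1. The sign of the uncalled log2 fold change turned under at least 1 alternative for 16 of 31 members tested. Those with a fold change in the text were Itgam, Itga11, Itgav, Lamb2 and Itgax, and the others were Itgb4, Itgad, Lama3, Lamc3, Itgb2, Lamb3, Itga3, Itga9, Itgae, Itgb3 and Itgb5. Itgam had -0.021 with median-of-ratios scaling, -0.13 with quantile normalization, -0.0023 with the lymphoid covariate and -0.19 to 0.41 when 1 library was left out. Itga11 had -0.11 with quantile normalization and -0.0016 to 0.27 when 1 library was left out. Itgav had 0.10 with the lymphoid covariate and -0.15 to 0.12 when 1 library was left out. The range over left-out libraries was -0.48 to 0.015 for Lamb2 and -0.091 to 1.02 for Itgax. The cause was not tested. Libraries with the same number deviated from their group means with correlations of -0.35, 0.37 and 0.65 over genes. Between libraries of unlike number the correlations ran from -0.71 (HEP2 with HFD3) to 0.50 (HEP1 with HFD3). Whether the numbers pair the samples cannot be told from these values. With the replicate block 0 genes passed in limma, with 576 at an unadjusted p under 0.05, among them 3 members, Itga7, Lamb1 and Lamc1. Depth was unknown, so the precision of low values such as those of Lama1 and Itgb6 cannot be given.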

Other observations

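Of 15 tested integrin ligands 4, Icam1, Icam2, Vcam1 and Madcam1, were highest in HEP1, HEP3 and HFD3, an order held by 30.5% of all genes tested. They are named here after their values were seen, and 2 ligands, Fn1 and Spp1, were highest in HEP2, HFD1 and HFD2. Icam1, a ligand of the beta2 integrins, had 37.9, 13.6 and 33.7 TPM in HEP1 to HEP3 and 8.98, 13.6 and 24.9 TPM in HFD1 to HFD3. Vcam1, a ligand of Itga4 integrins, had 52.2, 12.2 and 59.0 TPM in HEP and 8.13, 18.5 and 37.7 TPM in HFD. Madcam1, the gut and lymphoid venule ligand of the Itga4 and Itgb7 pair, had 2.09, 0.44 and 2.01 TPM in HEP and 0.25, 0.09 and 1.55 TPM in HFD. Fermt3, the kindlin of blood cells that activates integrins, had 37.1, 3.61 and 36.2 TPM in HEP and 3.65, 8.32 and 22.7 TPM in HFD. The groups overlapped for Icam1, Vcam1, Madcam1 and Fermt3, and each had an adjusted p of 0.879 in limma. Mast cell markers summed to 51.4 to 84.3 TPM in HEP and 41.2 to 88.6 TPM in HFD, and adipose progenitor markers to 831 to 1509 TPM in HEP and 959.8 to 1613 TPM in HFD.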
